A study of Mus musculus with 16 samples.

Results

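The E proteins and their Id inhibitors were described in B cells of the mouse spleen, in the follicular (FO) and the marginal zone (MZ) subset. The 6 genes, taken by symbol from the 27928 genes of the deposited table, were Tcf3, Tcf4 and Tcf12, which code for the E proteins, and Id1, Id2 and Id3, which code for the inhibitors. RNA was sequenced from FO cells sorted as CD21lo CD23hi and MZ cells sorted as CD21hi CD23lo, from adult C57BL/6 mice. WT mice are labelled as such, with no Cre or floxed allele named, and cKO mice were Gtf2i fl/fl with Cre expressed in B-lineage cells, so that Cre and the deletion came together. Each of the 4 groups had 2 libraries. The sources used here do not say whether the libraries of a group came from separate mice. The p-values thus measure the spread between these libraries, which may be technical, save in cKO FO as given below.

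E proteins are basic helix-loop-helix (bHLH) transcription factors that bind DNA as dimers at a short element called the E box, CANNTG. Id proteins have the helix-loop-helix but no basic region, so a dimer of an Id protein with an E protein does not bind DNA. In the B lineage E proteins activate the genes of early B cell development and of the antigen receptor, and the balance of E and Id proteins is known to bear on the choice between FO and MZ fate, with Id3 and Id2 as the Id genes best studied in lymphocytes.

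The libraries held between 21546552 and 25083552 reads on genes. The labelled subsets were read by listed markers. All 6 MZ markers were higher in both MZ libraries than in both FO libraries of each genotype. Of the 4 FO markers, 3 were higher in both FO libraries of each genotype. The other, Cr2, is also on the MZ list, and was at most 26803 normalized counts in the FO and at least 86953 in the MZ libraries. The FO marker Fcer2a, which codes for CD23, a protein used in the sort, was at least 24802 normalized counts in the FO and at most 6708 in the MZ libraries. Gtf2i, counted over the whole gene, was between 1992 and 2864 normalized counts in WT and between 1523 and 1889 in cKO libraries. In the fit described below it was 1.32-fold lower in cKO FO (limma adjusted p = 0.989). In cKO MZ it was 1.45-fold lower (limma adjusted p = 0.363), and Gtf2i was called in neither subset. The genotypes also differed in sex-linked transcripts, with Ddx3y, on the Y chromosome, at 6.34 or less in WT and 2682 or more in cKO libraries. Xist, expressed from the inactive X chromosome, was at 25930 or more in WT and at 89.7 or less in 3 of the cKO libraries. The fourth, cKO FO replicate 1, had 14748 against 67.4 in replicate 2, so these 2 libraries were not repeats of the same RNA. Replicate 1 thus held both transcripts, apart from the rest of its genotype. Without it, the members called in cKO mice numbered 1, as with it. The library cKO MZ replicate 1 stood apart in another way, with summed erythroid markers of 13364 normalized counts against at most 1025 in the other libraries and summed granulocyte markers of 1915 against at most 122.

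The level of each member was measured as the normalized count, the reads on the gene divided by the size factor of its library. FO was compared with MZ by limma on log2(normalized count + 1), in 1 fit of the 8 libraries, over the 14761 genes whose mean normalized count reached 10, and the differences below are FO minus MZ on that log2 scale. Calls required a p of 0.05 or less after Benjamini-Hochberg adjustment and a change of 1.5-fold or more. Of the 6 members, 5 passed the filter on low values. Id1 did not, and it was not tested.

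In WT mice, Id2 and Tcf4 were called higher in MZ, Id3 was called higher in FO, and Tcf3 and Tcf12 were not called. Thus 3 of the 5 tested members were called, where 12.0% of all tested genes were called, of which those higher in MZ made up 7.41% and those higher in FO 4.62% of the genes tested. In cKO mice, Id2 was the 1 called member, where 13.7% of all tested genes were called, 5.54% to the FO side and 8.18% to the MZ side. Over both genotypes together Id2 and Tcf4 were called, both higher in MZ, where 18.4% of all genes were called, 10.9% to the MZ side and 7.45% to the FO side. By the adjusted p alone, with no fold cutoff, 3 tested members passed in WT, 3 in cKO mice and 4 over both genotypes, against backgrounds of 16.9%, 19.6% and 33.4%. FO and MZ libraries did not overlap for 5 of the 6 members in WT, for 5 in cKO mice and for 4 across both genotypes. Such separation is common in these data, with 55.3% of tested genes in WT, 65.0% in cKO mice and 36.5% across both.

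**Figure D1:**
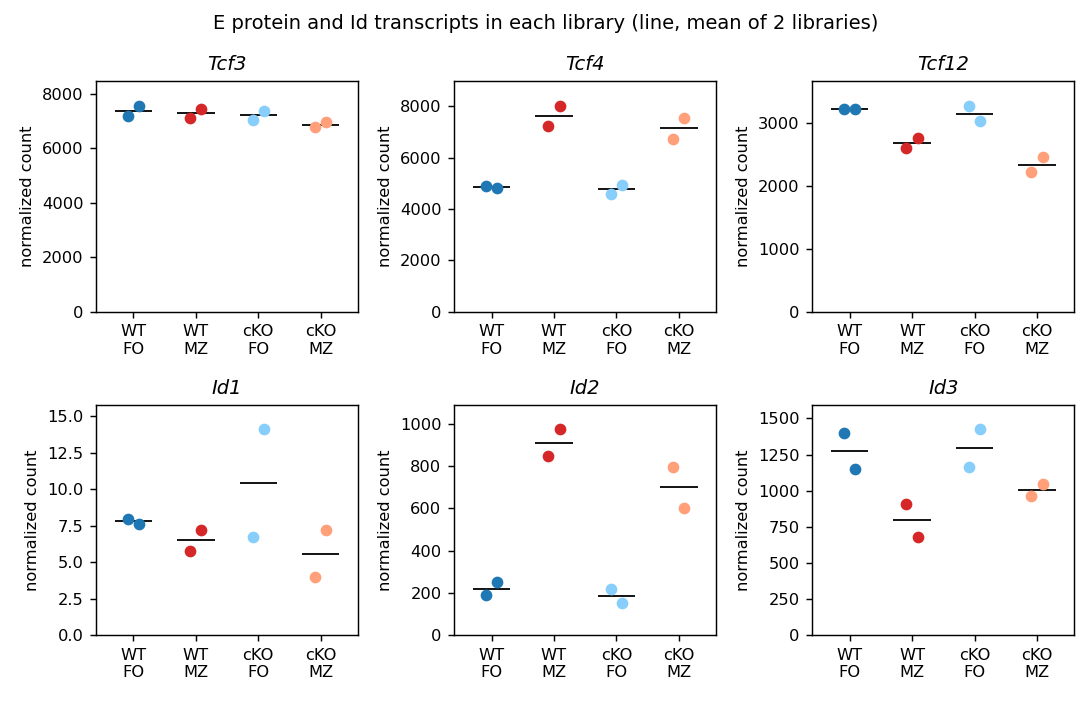
Normalized counts of the 6 members in each library (points) and their group means (lines), with the 4 groups on the x axis and an axis from 0 for each gene. Id2 and Tcf4 sit higher in the MZ groups of both genotypes, Tcf12 and Id3 sit higher in the FO groups, Tcf3 is nearly level, and Id1 stays below 15.

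Tcf3, the gene of the E proteins E12 and E47, lies on chromosome 10 of GRCm38 from 80409514 to 80433647, on the minus strand. It had 7207 and 7568 normalized counts in FO and 7121 and 7451 in MZ B cells of WT mice, against 7058 and 7369.8 in FO and 6772 and 6983 in MZ B cells of cKO mice. The FO and MZ libraries overlapped in WT, and in cKO mice both MZ libraries lay just below both FO libraries. The difference was 0.02 in WT (standard error 0.078, 95% interval -0.16 to 0.20, limma adjusted p = 0.899) and 0.07 in cKO mice (-0.11 to 0.25, adjusted p = 0.583). Over both genotypes the interval of -0.08 to 0.17 left room for neither a 1.5-fold change in FO nor in MZ. The sign was not stable, since quantile normalization turned it to -0.11 in WT and -0.10 in cKO mice.

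Tcf4 codes for E2-2, the E protein best known for its part in plasmacytoid dendritic cells and also expressed in B cells. It had 4911 and 4829 normalized counts in FO and 7219 and 8025 in MZ B cells of WT mice, against 4601 and 4930.0 in FO and 6746 and 7566 in MZ B cells of cKO mice. Every MZ library was above every FO library, and the 2 subsets stayed apart across the genotypes too. The difference was -0.64 in WT (standard error 0.095, 95% interval -0.86 to -0.42, limma adjusted p = 0.00394), which is 1.56-fold higher in MZ. In cKO mice it was -0.58 (-0.81 to -0.36, adjusted p = 0.00521), a change of 1.4999-fold that fell just short of the cutoff. Over both genotypes it was -0.61 (limma adjusted p = 0.000432), a 1.53-fold change. The call in cKO mice rested on the cutoff, as edgeR and DESeq2 on the recovered reads, quantile normalization, and leaving out cKO FO replicate 2 or cKO MZ replicate 1 each called Tcf4 there. In WT and over both genotypes it was not called without WT MZ replicate 2 (-0.57 and -0.58), and over both genotypes not without cKO MZ replicate 2 (-0.57), while its adjusted p stayed under 0.05 in these fits. The 6 plasmacytoid dendritic cell markers summed to 1033 and 1112 normalized counts in FO and 949 and 1039.7 in MZ B cells of WT mice. In cKO mice the sum was 1138 and 1037 in FO and 952 and 953 in MZ B cells, so it was not higher in MZ. Bst2 had the highest mean of these markers. Without Bst2 the sum was 289 and 362 in FO and 312 and 388 in MZ B cells of WT mice, with overlap. In cKO mice it was then 327 and 354 in FO and 367 and 395 in MZ B cells, higher in both MZ libraries. In WT mice 1 of these 6 markers was higher in both MZ libraries than in both FO libraries, and 1 was lower. In cKO mice 1 was higher and 4 were lower. Over all tested genes the subsets did not overlap, in either direction, for 55.3% in WT and 65.0% in cKO mice. Their part in the Tcf4 values was not tested.

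Tcf12 codes for HEB, the third E protein of lymphocytes, and lies on chromosome 9 from 71842688 to 72111871 on the minus strand. It had 3222 and 3238 normalized counts in FO and 2610.1 and 2775 in MZ B cells of WT mice, against 3282 and 3034 in FO and 2223 and 2463 in MZ B cells of cKO mice. Each FO library was above each MZ library, the opposite order to Tcf4. The difference was 0.26 in WT (standard error 0.089, limma adjusted p = 0.0876), 0.43 in cKO mice (adjusted p = 0.0138) and 0.35 over both genotypes (95% interval 0.20 to 0.49, adjusted p = 0.00452). The last is a 1.27-fold change, past the adjusted p but under the fold cutoff, so Tcf12 was not called. The cKO difference was 0.37 without cKO FO replicate 1 and 0.36 without cKO MZ replicate 1, with the adjusted p not passed.

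Id2 lies on chromosome 12 from 25093799 to 25097140 on the minus strand, and its product is known from innate lymphoid cells, natural killer cells and dendritic cells. It had 191 and 250.2 normalized counts in FO and 846 and 973 in MZ B cells of WT mice, against 221 and 151 in FO and 797 and 602 in MZ B cells of cKO mice. The lowest MZ library held more than the highest FO library in each genotype, and Id2 showed the widest separation of the members. The difference was -2.05 in WT (standard error 0.233, 95% interval -2.59 to -1.51, limma adjusted p = 0.00131), or 4.14-fold higher in MZ. In cKO mice it was -1.92 (-2.46 to -1.38, adjusted p = 0.00151), or 3.78-fold. Id2 was called in both genotypes in each of the 14 alternatives of each comparison, with differences between -2.24 and -1.85 in WT and between -2.19 and -1.65 in cKO mice.

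Since other cells of the spleen express Id2, the markers of 3 such types were read beside it. The summed natural killer and innate lymphocyte markers were 335 and 689 normalized counts in FO and 670.3 and 1037 in MZ B cells of WT mice, against 318 and 219 in FO and 881 and 568 in MZ B cells of cKO mice. In WT mice 1 of these 10 markers, Prf1, was higher in both MZ libraries than in both FO libraries. In cKO mice 3 were, namely Prf1, Klrd1 and Il2rb. In either genotype 0 were higher in both FO libraries. Without Prf1 the sum was 288 and 604 in FO against 260.0 and 738 in MZ B cells of WT mice, and 258 and 176 against 487 and 234 in cKO mice. The natural killer receptor gene Ncr1 was at 12.0 and 39.0 in FO against 4.82 and 23.5 in MZ B cells of WT mice, with overlap between the subsets. In cKO mice Ncr1 was at 14.6 and 8.05 in FO against 21.9 and 8.25 in MZ B cells, again with overlap. Klrd1 was at 14.6 and 17.1 in FO against 44.9 and 22.7 in MZ B cells of cKO mice. Il2rb was at 81.7 and 44.3 in FO against 193 and 111 in MZ B cells of cKO mice. For Klrd1 and Il2rb the subsets overlapped in WT mice. Of the conventional dendritic cell markers, 2 of 8 in WT and 4 of 8 in cKO mice were higher in both MZ libraries. In both FO libraries 1 was higher in WT and 2 in cKO mice. Their sums were 209.6 and 279 in FO and 297 and 421 in MZ B cells of WT mice. In cKO mice the sums were 243 and 261 in FO and 484 and 425 in MZ B cells. Flt3, the marker with the highest mean, was at 110 and 96.1 in FO and 150 and 114 in MZ B cells of WT mice. In cKO mice Flt3 was at 140 and 158 in FO and 302 and 286 in MZ B cells. Clec9a was at 0 in both cKO FO libraries and at 10.0 or less elsewhere. Of the macrophage and monocyte markers, 2 of 12 in WT and 8 of 12 in cKO mice were higher in both MZ libraries. In both FO libraries 0 were higher in WT and 1 in cKO mice. Their sums were 824 and 1487 in FO and 949.6 and 2181 in MZ B cells of WT mice. In cKO mice the sums were 1316 and 915 in FO and 2405 and 1645 in MZ B cells. The subsets did not overlap, in either direction, for 55.3% of tested genes in WT and 65.0% in cKO mice. The counts of markers higher in MZ are of 1 direction, for which no share of all genes was computed. The part of these cells in the Id2 values was not tested. Without cKO MZ replicate 1, the library with erythroid and granulocyte transcripts, Id2 was still called in cKO mice, with a difference of -1.72 (limma adjusted p = 0.0196), and without cKO FO replicate 1, the library with both sex-linked transcripts, with -2.19 (adjusted p = 0.00533). In such bulk samples, fewer cells of a type and less RNA per cell cannot be told apart.

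Id3 lies on chromosome 4 from 136143497 to 136145755 on the plus strand, and it is a gene that antigen receptor signals induce in lymphocytes. It had 1401 and 1148 normalized counts in FO and 910.2 and 679 in MZ B cells of WT mice, against 1164 and 1423 in FO and 965 and 1049.7 in MZ B cells of cKO mice. Each FO library was above each MZ library, by the smallest margin in cKO mice. The difference was 0.69 in WT (standard error 0.174, 95% interval 0.29 to 1.09, limma adjusted p = 0.0329), or 1.61-fold higher in FO. In cKO mice it was 0.35 (-0.05 to 0.76, adjusted p = 0.198), and over both genotypes 0.52 (adjusted p = 0.014), a 1.44-fold change under the cutoff, which was passed without WT FO replicate 2 (0.59), WT MZ replicate 1 (0.63) or cKO FO replicate 1 (0.59). The WT call was not firm, since it was lost without the filter on low values, with only the 4 WT libraries in the fit, and without WT FO replicate 1 or WT MZ replicate 2, where the difference was 0.55 and 0.48 without these libraries.

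Id1, on chromosome 2 from 152736251 to 152737410 on the plus strand, is the Id gene that bone morphogenetic protein (BMP) signals are best known to induce. It had 7.98 and 7.61 normalized counts in FO and 5.78 and 7.25 in MZ B cells of WT mice, against 6.72 and 14.1 in FO and 3.99 and 7.22 in MZ B cells of cKO mice, which are between 4 and 14 reads in each library. At this depth no difference between the subsets was detectable, since limma fitted without the filter gave a difference of 0.23 in WT (95% interval -1.08 to 1.55, adjusted p = 0.916) and 0.75 in cKO mice (-0.56 to 2.07, adjusted p = 0.505). Id4, the remaining Id gene, had at most 2 reads in each library but cKO MZ replicate 2, which had 8.

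**Figure D2:**
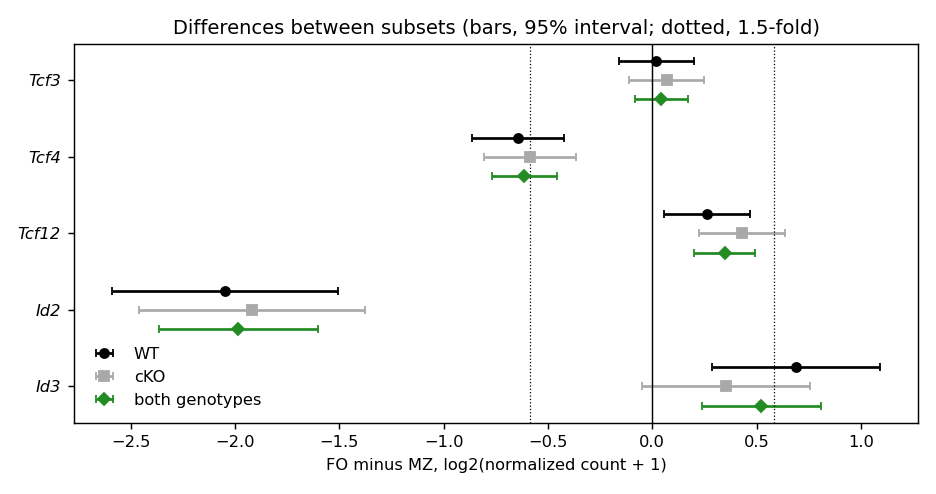
FO minus MZ difference of the 5 tested members on the log2(normalized count + 1) scale (x axis) in WT, in cKO and over both genotypes, with 95% intervals (bars) and the 1.5-fold cutoff (dotted lines). Id2 lies far to the MZ side at -2.05 and -1.92, Tcf4 at the cutoff on the MZ side, Tcf12 and Id3 on the FO side, and Tcf3 at 0.02 and 0.07.

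Whether the difference between subsets itself differed between the genotypes was tested as an interaction. No member was called, and 0 of 14761 genes were called by limma, edgeR or DESeq2, for a background of 0.00%, with 94 genes at an unadjusted p under 0.05 by limma, 106 by edgeR and 67 by DESeq2. The interaction, cKO minus WT, was -0.33 for Id3 (95% interval -0.90 to 0.24), 0.13 for Id2 (-0.64 to 0.90), 0.17 for Tcf12 (-0.12 to 0.46), 0.06 for Tcf4 (-0.25 to 0.37) and 0.05 for Tcf3 (-0.21 to 0.31), each with a limma adjusted p of 1.00. For Id2 and Id3 these intervals are wide and hold changes of more than 1.5-fold. Id3 was called in WT and not in cKO mice, and by this test it was not shown to differ between them.

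Between cKO and WT, limma called 0.0677% of genes in FO (0.0542% higher and 0.0135% lower in cKO) and 0.0339% in MZ B cells, and no member. Sex-linked transcripts differed between the genotypes too, so deletion, Cre and sex cannot be told apart here or in the interaction. In FO B cells the members differed by between -0.26 (Id2, 95% interval -0.80 to 0.28) and 0.02 (Id3, -0.38 to 0.42). In MZ B cells Id2 was lower in cKO by -0.39 (-0.93 to 0.15) and Id3 higher by 0.36 (-0.05 to 0.76), each at a limma adjusted p of 0.998. The E proteins differed by between -0.20 (Tcf12) and -0.08 (Tcf3) in MZ B cells.

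The levels of the members were compared with each other per kb of exon, with all exons annotated by GENCODE M21 for GRCm38 merged into 1 length per gene. No exon of a member overlapped an exon of another annotated gene. Of the E proteins, Tcf3 was highest in each library, at 1829 ± 63.2 normalized counts per kb (SD, n = 2) in FO and 1804 ± 57.7 in MZ B cells of WT mice. Tcf12 stood above Tcf4 in FO, at 208 ± 0.69 against 178 ± 2.11 in WT, and below it in MZ B cells, at 173 ± 7.50 against 278 ± 20.8. Of the Id genes, Id3 was at 712 ± 99.8 per kb in FO and 444 ± 91.2 in MZ B cells of WT mice, and at 722 ± 102 and 562 ± 33.5 in cKO mice. Id2 was at 90.4 ± 17.3 and 373 ± 36.8 in WT and at 76.2 ± 20.2 and 287 ± 56.6 in cKO mice, and Id1 at 8.97 ± 4.49 or less in each group. By merged exons the order in WT FO was thus Tcf3, Id3, Tcf12, Tcf4, Id2 and Id1, with no overlap between neighbours. In WT MZ it was Tcf3, Id3, Id2, Tcf4, Tcf12 and Id1, where the libraries of Id3 and Id2 overlapped and the other neighbours did not. The place of Tcf4 depended on the length used. By the longest coding transcript, Tcf4 was at 568 and Tcf12 at 513 per kb in WT FO, so that Tcf4 was above Tcf12 in both subsets. In WT MZ it was then at 889, above Id3 at 622, Id2 at 462 and Tcf12 at 427, and the libraries of Id2 and Tcf12 overlapped while those of Id3 and Id2 did not.

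As shares of the E protein transcripts per kb, Tcf4 was 8.26% and 7.81% in FO and 12.0% and 12.7% in MZ B cells of WT mice, against 7.90% and 8.18% in FO and 11.9% and 12.8% in MZ B cells of cKO mice. The summed level was 2171 and 2259 normalized counts per kb in FO and 2195 and 2316 in MZ B cells of WT mice, against 2127 and 2200.1 in FO and 2066 and 2164 in MZ B cells of cKO mice. By merged exons the subsets overlapped in this sum in each genotype, while the share of Tcf4 did not overlap. By the longest coding transcript the share of Tcf4 was larger, at 16.2% and 15.5% in FO and 22.9% and 24.0% in MZ B cells of WT mice, and again without overlap. The sum was then 3527 and 3642 in FO and 3670.0 and 3902 in MZ B cells of WT mice, with no overlap, and it still overlapped in cKO mice.

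The Id transcripts were divided otherwise. Id3 was the larger part in FO, with 90.2% and 85.4% of the per-kb sum of Id1, Id2 and Id3 in WT and 87.1% and 91.5% in cKO mice. Id2 was 9.01% and 13.7% of it in FO and 40.3% and 50.9% in MZ B cells of WT mice, against 12.1% and 7.13% in FO and 37.6% and 29.4% in MZ B cells of cKO mice. In 1 library, WT MZ replicate 2, Id2 was above Id3 by merged exons, and by the longest coding transcript it was below, with 47.9% against 51.5%. The sum itself was 867 and 750.3 normalized counts per kb in FO and 860.0 and 784 in MZ B cells of WT mice, against 746 and 869 in FO and 869 and 839 in MZ B cells of cKO mice, and the subsets overlapped in each genotype. The level of Id3 itself was called lower in MZ in WT, and not in cKO mice or over both genotypes. The summed E protein transcript per summed Id transcript was 2.50 and 3.01 in FO against 2.55 and 2.95 in MZ B cells of WT mice. In cKO mice it was 2.85 and 2.53 in FO against 2.38 and 2.58 in MZ B cells. These are levels of RNA, and protein was not measured here.

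**Figure D3:**
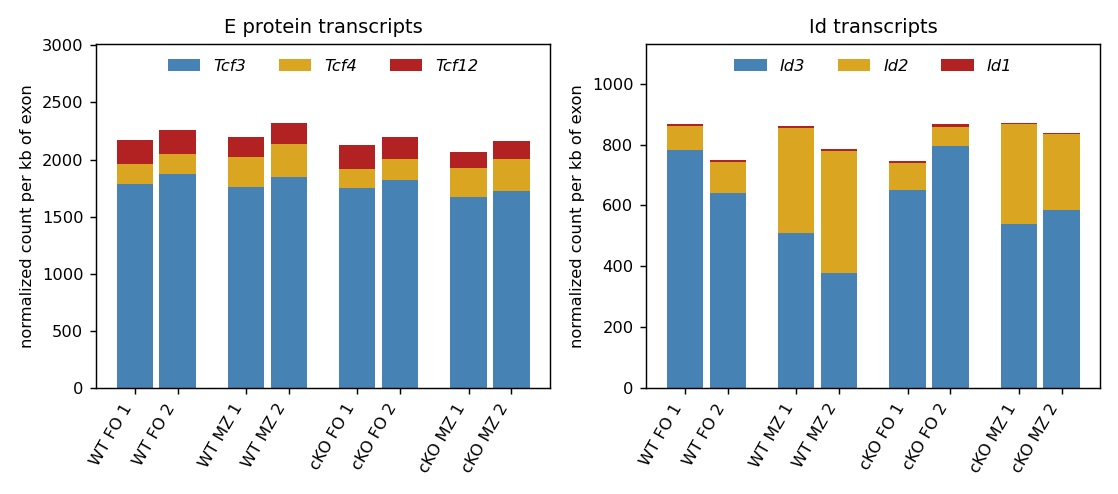
Normalized counts per kb of exon of the E protein genes (left) and the Id genes (right) in each library, stacked by gene, with both axes starting at 0. By these merged exons the stacks lie between 2066 and 2316 for E proteins and between 746 and 869 for Id genes, while Id2 takes a larger part of the Id stack in MZ than in FO B cells.

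The ratio of an E protein to an Id transcript depended on which Id gene was read. The log2 ratio of Tcf3 to Id2 was 5.23 and 4.91 in FO and 3.07 and 2.94 in MZ B cells of WT mice, against 4.99 and 5.60 in FO and 3.08 and 3.53 in MZ B cells of cKO mice. The ratios of all 3 E proteins to Id2 were higher in FO, by 1.40 (Tcf4) to 2.31 (Tcf12) in WT and by 1.33 (Tcf4) to 2.35 (Tcf12) in cKO mice, and the subsets did not overlap.

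The ratios to Id3 ran the other way for Tcf3 and Tcf4. Tcf4 to Id3 was 1.81 and 2.07 in FO and 2.99 and 3.56 in MZ B cells of WT mice, against 1.98 and 1.79 in FO and 2.80 and 2.85 in MZ B cells of cKO mice, a difference of -1.33 in WT and -0.94 in cKO mice. Tcf12 to Id3 differed by -0.43 in WT and 0.08 in cKO mice, and in cKO mice the subsets overlapped. These ratios are descriptions of the same values and carry no test.

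**Figure D4:**
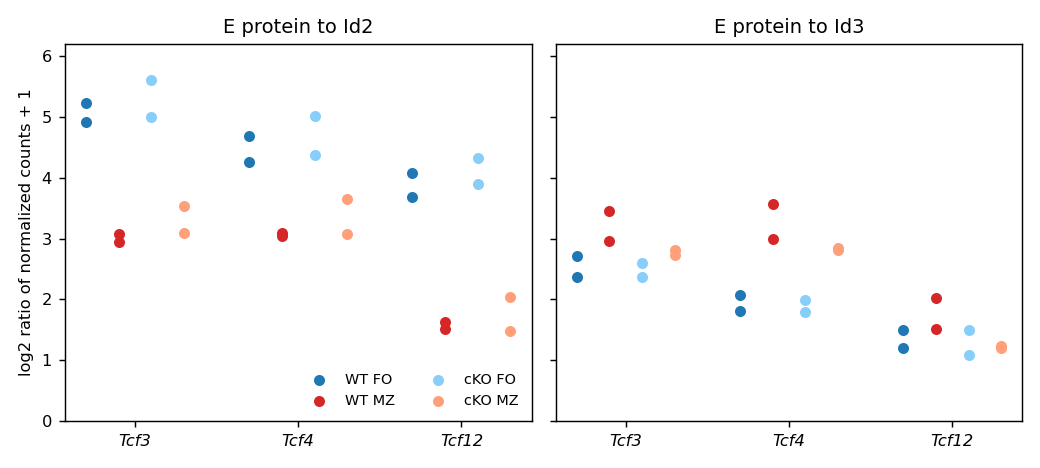
Log2 ratio of normalized counts (plus 1) of each E protein gene to Id2 (left) and to Id3 (right) in each library, with points coloured by group. Against Id2 each FO library lies above each MZ library, and against Id3 the MZ libraries lie above the FO libraries for Tcf3 and Tcf4, while those of Tcf12 overlap in cKO mice.

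For each tested member, the 3 genes most like it over the 8 libraries were named by Pearson r on the log2 scale. These points share libraries and subsets, so r describes a pattern that many genes of these subsets share. Id2 was most like Lipc (r = 0.995), Csf2rb (0.991) and Sirpa (0.991), Tcf4 was most like Zdhhc14 (0.990), Inpp5f (0.987) and Phkb (0.987), and Tcf12 was most like Sik3 (0.997), Calcrl (0.994) and Cbll1 (0.992). Lipc had 24.0 and 37.1 normalized counts in FO and 467 and 620.4 in MZ B cells of WT mice, a wider gap than that of Id2. The values of r were lower for Id3, with Trappc4 (0.979), Psmd4 (0.963) and Pdcd10 (0.962), and for Tcf3, with Taf2 (0.969), Lck (0.963) and Epg5 (0.960).

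The E box that the dimers bind was looked for in the promoters of the members, from 250 bases before to 50 after each RefSeq start in GRCm38.p6, on both strands. Promoter sequence was used for Tcf3, Tcf12, Id2 and Id3. The E box form CAGCTG was found in 1 promoter of Id2 and 1 of the 3 of Tcf12, where 16.3% of all 32851 promoters hold it. The promoter of Tcf3 held no CAGCTG and 1 other E box, where 72.3% of promoters hold any CANNTG, and that of Id3 (chr4:136143572-136143871) held no CANNTG. A window of 30 bases around each of these E boxes is shown 5′ to 3′ on the strand of the gene, with the E box in capitals, as the element through which E proteins and thus Id proteins act.
Id2, chr12:25096271-25096300, minus strand, E box 196 bases before the start: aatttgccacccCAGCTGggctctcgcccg
Tcf12, chr9:72112040-72112069, minus strand, E box 240 bases before the start: agatgctgccCAGCTGcgtccccgtcgcgg
Tcf3, chr10:80433672-80433701, minus strand, E box 54 bases before the start: agtgggcgtggtCACTTGggggcgtggctt
The letters are a description of these windows, and binding was not measured. Id2, higher in MZ, and Tcf12, higher in FO without passing the fold cutoff, thus both hold the CAGCTG form. Tcf12 holds it in 1 of its 3 promoters, and Tcf4, also higher in MZ, was not searched.

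The partners of E proteins and the genes around them were read from gene lists beside the members. The share of all genes called is given beside each list, and no list was tested against it. Of 23 partners and cofactors, 13 were tested, and 1 was called higher in FO and 3 higher in MZ in WT, against 1 and 2 in cKO mice, where 12.0% and 13.7% of all genes were called in either direction, with a median difference of 0.12 in WT where that of all genes was 0.0048. Lmo2, an adaptor that bridges E proteins with other factors, had 6503 and 7707 normalized counts in FO and 2451 and 3043 in MZ B cells of WT mice, a difference of 1.37 (limma adjusted p = 0.000986). Hes1 and Hes5, bHLH repressors induced by Notch, were higher in MZ, by -1.39 and -2.06 in WT and -1.52 and -2.17 in cKO mice. Cbfa2t3, a corepressor that binds E proteins, was higher in MZ in WT (-1.09, adjusted p = 0.0259) and missed the threshold in cKO mice (-0.88, adjusted p = 0.0502). Tal1, a bHLH partner named after its values were seen, had 90.7 normalized counts in cKO MZ replicate 1, the library with erythroid transcripts, and at most 8.05 elsewhere.

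Of 17 tested E protein targets in B cells, 3 were called higher in FO and 1 higher in MZ in WT (4.62% and 7.41% of all genes), and 4 and 0 in cKO mice (5.54% and 8.18% of all genes), with a median difference of 0.11 in WT. Foxo1, a transcription factor of B cell development, had 8081 and 7193 normalized counts in FO and 4788 and 5175 in MZ B cells of WT mice, a difference of 0.62 (limma adjusted p = 0.00451) in WT and 0.72 in cKO mice. Vpreb3, which codes for a protein that associates with the pre-B cell receptor, was higher in FO by 1.22 and 0.96, and the cell cycle inhibitor gene Cdkn1a by 2.18 and 2.34. Blnk, an adaptor of antigen receptor signalling, was higher in MZ in WT (-0.68, adjusted p = 0.0297) and fell short of the fold cutoff in cKO mice (-0.57). Cxcr4, a chemokine receptor gene, was called higher in FO in cKO mice (1.57, adjusted p = 0.0467) and not in WT (1.03, adjusted p = 0.174). Ebf1, the B lineage factor downstream of Tcf3, differed by 0.00 in WT and -0.05 in cKO mice, and is named as the best known target.

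Id genes are known targets of BMP and TGF-beta signals, which act through Smad proteins. Of 16 tested genes of this signalling, 3 were called higher in FO and 1 higher in MZ in WT, 4 and 1 in cKO mice, and 5 and 1 over both genotypes, where 12.0%, 13.7% and 18.4% of all genes were called, with a median difference of 0.33 in WT and 0.29 in cKO mice. Smad1, which carries BMP signals, had 248 and 219 normalized counts in FO and 70.3 and 67.0 in MZ B cells of WT mice, a difference of 1.75 (limma adjusted p = 0.0088). Smad3, which carries TGF-beta signals, had 1072 and 951 in FO and 3555 and 2487 in MZ B cells of WT mice, a difference of -1.56 (limma adjusted p = 0.00124). The receptor gene Tgfbr2 was higher in FO by 0.69 and 0.89, the repressor gene Skil by 0.74 and 0.88, and the ligand gene Tgfb1 by 0.54 (under the fold cutoff) and 0.73, in WT and cKO mice. Whether these genes bear on the Id transcripts was not tested.

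Of 12 tested factors of other families that bind E boxes, 0 were called in WT and 1, Tfap4, was called higher in MZ in cKO mice (-0.65, limma adjusted p = 0.0333), and its WT difference was -0.38 (adjusted p = 0.179). These counts are near the shares of all genes called, 12.0% in WT and 13.7% in cKO mice. With no fold cutoff, 1 of these genes passed in WT, higher in FO, and 1 in each direction in cKO mice, and their median difference was -0.18 in WT. Of the 10 genes for the ubiquitin ligases and deubiquitinases of E and Id proteins, 0 were called in WT, in cKO or over both genotypes, against the 12.0%, 13.7% and 18.4% of all genes, while 1 gene passed the adjusted p alone in WT and 1 in cKO mice, both higher in FO. Their differences lay between -0.25 and 0.37 in WT, with Wdr48, a partner of the deubiquitinase USP1 that acts on Id proteins, at 0.37 (adjusted p = 0.0361), named after its values were seen.

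Without cKO FO replicate 1, the calls in cKO mice of Hes5 (-1.79), Tfap4 (-0.74), Cdkn1a (2.14), Smad1 (1.01) and Cxcr4 (1.16) were lost, with the direction kept. The library with erythroid and granulocyte transcripts, cKO MZ replicate 1, was left out in the same way. The calls of Hes5 (-2.22), Tfap4 (-0.58), Smad1 (1.66), Cxcr4 (1.41), Vpreb3 (0.93) and Tgfb1 (0.57) were then lost, again with the direction kept.

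**Figure D5:**
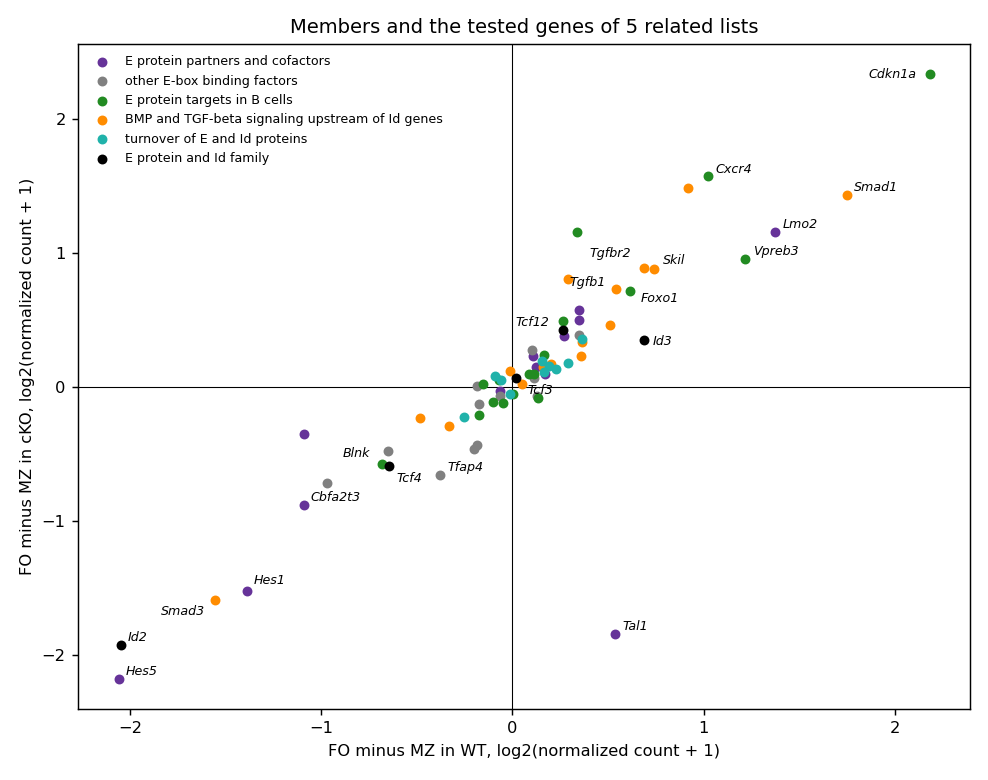
FO minus MZ difference in WT (x axis) and in cKO mice (y axis), both on the log2(normalized count + 1) scale, for the tested members and the tested genes of the 5 related lists, with points coloured by list. Id2 lies with Hes5, Hes1 and Smad3 at the MZ end, Id3 and Tcf12 lie on the FO side with Lmo2 and Smad1 farther out, and Tal1, from cKO MZ replicate 1, lies alone.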

How the data were processed

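RNA from sorted FO and MZ B cells was depleted of ribosomal RNA and sequenced, and the authors aligned the reads with HISAT2 and deposited a table of signal, namely normalized counts for 27928 genes in 8 libraries. Multiplying each value by its library's DESeq2 size factor gave whole reads for 100% of the values (within 0.01). Symbols in the table chose the members, and members and lists were chosen with earlier results of these data known.

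The fit of log2(normalized count + 1) used limma 3.58.1 (R 4.3.3, lmFit, eBayes with trend) for 14761 genes with a mean of at least 10, in 1 fit of 4 groups, and adjusted by Benjamini-Hochberg over all of them. Calls needed an adjusted p of at most 0.05 and 1.5-fold, the cutoff of the study. The pseudocount makes differences of low genes smaller. Alternatives were a pseudocount of 0.5, no filter, quantile normalization, the replicate number as a block, edgeR 4.0.16 (quasi-likelihood) and DESeq2 1.42.0 on recovered reads, other fold cutoffs, only the 4 libraries compared, and each library left out. Longest coding transcripts as lengths, and a block with cKO MZ numbers exchanged, were chosen after seeing the data. On simulated data for FO against MZ in WT (14761 genes), limma called 66 of 100 genes changed 2-fold, 97 of 100 changed 4-fold and 13 unchanged genes. The simulated libraries were drawn independently, with the same dispersion for all genes, so these rates need not hold for the real libraries.

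Besides the members and Id4, the text names up to 5 genes of each list with the smallest p among those called, the top gene of a marker list, and the 3 genes most like each member. Genes named outside this rule include the markers Ncr1, Klrd1, Il2rb and Clec9a. Gene positions and lengths are from GENCODE M21 for GRCm38 and promoters from RefSeq. The 8 ATAC-seq samples were not analysed here.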

Additional observations from a re-analysis of the deposited data

How the results depend on the processing

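Id2 was called in each alternative of FO against MZ. The number of members called in WT was 1 at a 2-fold cutoff, in cKO mice 2 by DESeq2, edgeR or quantile normalization and 3 with no fold cutoff, and over both genotypes 1 at 2-fold and 4 with no fold cutoff. With each library left out in turn it was 1 to 3 in WT, 1 to 2 in cKO mice and 1 to 3 over both genotypes. Quantile normalization turned Tcf3 to -0.11 in WT, -0.10 in cKO mice and -0.11 over both genotypes, and shifted the median of all genes from 0.0048 to 0.0411 in WT. No other planned setting but a left-out library turned the sign of a member, and none of the differences it turned was called. The cause was not tested.

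With 1 library left out, these uncalled values turned sign. For FO against MZ in WT, Tcf3 lay between -0.0153 and 0.0552. The ratio of Tcf12 to Id3, FO minus MZ in cKO mice, lay between -0.13 and 0.28. For the interaction, Tcf4 lay between -0.0235 and 0.14 and Id2 between -0.14 and 0.40. For cKO against WT in FO, Tcf3 lay between -0.0694 and 0.0011, Tcf4 between -0.082 and 0.0177, Tcf12 between -0.0904 and 0.023, Id2 between -0.53 and 0.0143, and Id3 between -0.12 and 0.17.

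Of all genes, those called higher in FO in WT numbered 390 at 2-fold, 1108 with no fold cutoff and 378 with only the 4 libraries, which called 636 higher in MZ. In cKO mice they were 444 and 1371 at these cutoffs, and over both genotypes 573 and 2400, with 2526 higher in MZ with no fold cutoff. With 1 library left out, 435 to 605 genes were called higher in FO and 638 to 844 higher in MZ in cKO mice, fewest without cKO MZ replicate 1, while cKO against WT gave 4 to 6 higher and 0 to 2 lower in FO and 0 to 1 lower in MZ. Between cKO and WT in FO, DESeq2 called 19 genes higher and 6 lower in cKO, the 2-fold cutoff 1 lower, and the 4-library fit 4 higher and 0 lower. In MZ B cells DESeq2 called 30 higher and 18 lower, and the fit without the filter and the 4-library fit 1 lower each. No member was among them.

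The replicate numbers were not taken to pair the libraries, since same-numbered libraries went together in WT but not in each pair of groups. The deviations of same-numbered libraries correlated at 0.591 between WT FO and WT MZ, -0.0015 between cKO FO and cKO MZ, and between -0.296 and 0.294 elsewhere. With the replicate number as a block, 789 genes were called higher in FO and 1184 higher in MZ in WT, 934 and 1328 in cKO mice, and 1169 and 1692 over both genotypes, and the calls of the members stayed as they were. A block with the cKO MZ numbers exchanged called 903 and 1359 in WT, 1045 and 1540 in cKO mice, 14 higher in cKO FO, and 11 higher and 1 lower in cKO MZ.

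Per kb of the longest coding transcript, Tcf3 was at 2504, 2470, 2445 and 2331 in WT FO, WT MZ, cKO FO and cKO MZ, Tcf4 at 568, 889, 556 and 834, Tcf12 at 513, 427, 501 and 372, Id2 at 112, 462, 94.4 and 355, and Id3 at 997, 622, 1012 and 788. A level per kb uses no pseudocount, so that alternative gives no value. Where 2 libraries are compared with 2, no exact test that permutes the libraries can reach 0.05 for a single gene. The number of libraries limits each difference here.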
